A study of Mus musculus with 8 samples.

Results

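Agrp, Npy, Pomc, Cartpt, Hcrt, Pmch, Lepr, Mc3r, Mc4r and Ghsr encode peptides that drive or restrain feeding and receptors that act in the same circuits. These 10 genes were taken by symbol from the 19884 genes of a table of read counts, and each symbol matched 1 gene. The table covers whole uterus and whole brain of wild-type C57BL/6J female mice, 6 to 10 weeks old, that had mated with fertile males and were killed, without treatment, on day 4 of gestation, with the vaginal plug marking day 1. Each organ has 4 libraries from 4 mice, and the sources used here do not say whether a uterus and a brain of the same number came from the same mouse. Both groups are pregnant, so the comparison is between organs and not between pregnant and non-pregnant animals. The series states no purpose for setting uterus against brain. The brain was taken whole, which places the small hypothalamic nuclei that make most of these peptides among all other brain tissue, and the uterus was taken whole with its muscle, vessels and nerve endings.

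In the brain, neurons of the arcuate nucleus that make neuropeptide Y (Npy) and agouti-related peptide (Agrp) promote feeding, and their neighbours that make pro-opiomelanocortin (Pomc) and the CART peptide (Cartpt) restrain it. Pomc is cut into melanocortins, which act on the melanocortin receptors Mc3r and Mc4r, and Agrp blocks the same receptors. Leptin from fat acts on these neurons through its receptor Lepr, ghrelin from the stomach acts through Ghsr, and orexin (Hcrt) and melanin-concentrating hormone (Pmch) are made by neurons of the lateral hypothalamus. Outside the brain, neuropeptide Y is also known from sympathetic nerves, and leptin receptors are known from many tissues, the uterus among them.

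The stretches before the RefSeq transcription starts of 6 of these genes are shown because they hold, or lack, the motifs searched for, and because the genes differ so widely between the organs. They were read from RefSeq on GRCm38.p6, 5′ to 3′ on the strand of each gene, and positions count back from -1, the base before the RefSeq start. The windows were 150 bases long, and 8 of the 10 genes matched an entry. Capitals mark TATAAA in Pmch (chr10:88090922-88091071, plus strand), Hcrt (chr11:100762932-100763081, minus strand) and Pomc (chr12:3954795-3954944, plus strand). Capitals mark TGACGTCA, the cyclic AMP response element, in the 30 bases shown of Cartpt (chr13:99900777-99900806, minus strand). These 30 bases lie before the RefSeq start but inside the annotated span of Cartpt, and their window overlaps an annotated Cartpt exon. They can therefore be transcribed sequence. Npy (chr6:49822560-49822709, plus strand) and the 147 bases of Lepr (chr4:101717257-101717403, plus strand) hold no capitals.
Pmch: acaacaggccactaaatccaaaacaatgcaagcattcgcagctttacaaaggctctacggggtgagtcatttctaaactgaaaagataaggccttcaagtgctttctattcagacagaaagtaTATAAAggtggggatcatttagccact
Hcrt: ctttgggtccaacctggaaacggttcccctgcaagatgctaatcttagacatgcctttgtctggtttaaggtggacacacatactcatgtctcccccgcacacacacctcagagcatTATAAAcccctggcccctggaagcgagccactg
Pomc: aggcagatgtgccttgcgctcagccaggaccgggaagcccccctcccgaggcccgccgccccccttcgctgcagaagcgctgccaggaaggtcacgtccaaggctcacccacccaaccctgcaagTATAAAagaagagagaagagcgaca
Cartpt: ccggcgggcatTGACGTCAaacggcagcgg
Npy: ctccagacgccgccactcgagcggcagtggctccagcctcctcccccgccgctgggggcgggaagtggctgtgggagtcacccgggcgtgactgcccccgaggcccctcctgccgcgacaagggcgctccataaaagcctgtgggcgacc
Lepr: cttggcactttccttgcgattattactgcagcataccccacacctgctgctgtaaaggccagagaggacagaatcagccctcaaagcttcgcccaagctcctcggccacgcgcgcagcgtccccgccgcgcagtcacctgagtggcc
TATAAA began at -27 in Pmch, at -33 in Hcrt and at -25 in Pomc, and 7.57% of 32851 RefSeq windows of this length held it on either strand. TGACGTCA began at -112 in Cartpt, and 1.36% of the windows held it. All motifs were searched in the full windows of 150 bases, also where fewer bases are shown. TTCNNNGAA, a STAT site, and the palindromic oestrogen response element were in none of the windows of these genes, against 4.09% and 0.0335% of all windows. The motifs found did not overlap each other, and a match or its absence describes these letters alone.

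Library totals were 35394603 to 40254254 counts in uterus and 40115616 to 47790178 in brain. Levels are given as CPM, library-scaled counts per 1e6 reads with TMM factors. A count of 0 was read as allowing up to 3 counts in a library, which were worth 0.0692 to 0.0810 CPM. Such limits and the intervals on ratios cover counting error only, because without molecular identifiers a read is not an independent molecule. The organs matched their labels: 10 neuronal markers summed to 10.7 to 16.5 CPM in uterus and 7480 to 7700 CPM in brain, and 10 markers of uterine stroma and epithelium summed to 6050 to 7320 CPM in uterus and 41.5 to 49.7 CPM in brain, with Hand2 at 0 counts in brain. Fewer cells of a type and less RNA per cell cannot be told apart in whole organs.

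Lepr was higher in uterus and the other 9 genes were higher in brain, by edgeR's quasi-likelihood test at an adjusted p under 0.05. Of all 16074 genes tested, 87.0% were called, 43.5% as higher in uterus and 43.6% as higher in brain, so that a call by itself sets none of these genes apart. The organs did not overlap in any of the 10 genes, which was so of 84.1% of all genes tested, 42.0% with uterus above and 42.0% with uterus below. Past a 2-fold change, 1 of the genes was higher in uterus and 8 in brain, against 23.5% and 25.8% of all genes (49.3% together). Agrp, Npy and Lepr passed the filter on low counts, at about 0.249 CPM, through both organs. The other 7 passed through brain only, which selects for a higher level in brain, so their number supports nothing. The median log2 fold change, uterus over brain, was -4.97 over the 10 genes, or -4.92 with Mc3r at its bound, and 0.012 over all genes tested. The same 7 are among the 10, so this median supports nothing either.

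**Figure D1:**
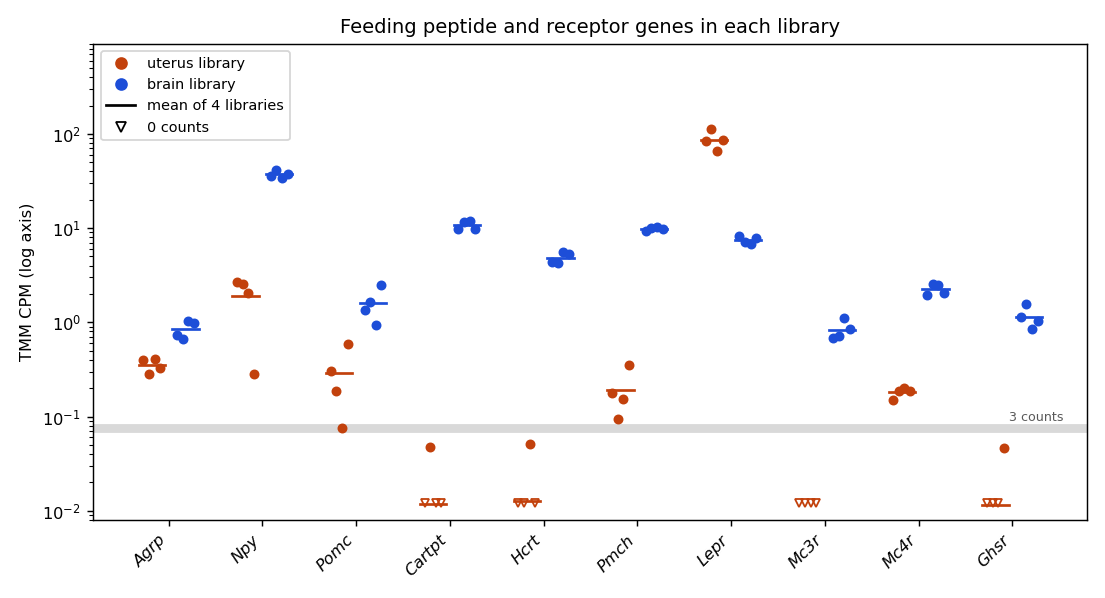
Level of each of the 10 genes in each library, in TMM CPM on a log axis, with uterus libraries left of brain libraries, bars at the mean of 4 libraries and triangles for 0 counts; no bar is drawn for Mc3r in uterus, and the grey band spans 3 counts. Lepr stands at 65.1 to 112 CPM in uterus and 6.84 to 8.20 CPM in brain, while the brain libraries lie above the uterus libraries in the other 9 genes.

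Among the peptides that promote feeding, Npy (chr6:49822710-49829507, plus strand) had the highest brain level of the 10 per exon length. The uterus libraries 1 to 4 had 2.69, 2.56, 2.05 and 0.280 CPM, and the brain libraries 35.3, 41.7, 34.0 and 37.6 CPM. Uterus libraries 1 to 3 lay together and library 4 far below them, with 12 counts against 81 to 109, while the brain libraries lay close together. The mean was 1.90 ± 1.11 CPM in uterus and 37.2 ± 3.40 CPM in brain (SD, n = 4 each), a log2 fold change of -4.30 ± 0.42 (SE) with an adjusted p of 4.07e-06. Without uterus library 4 the log2 fold change was -3.91. Of markers of sympathetic neurons, the transporter Slc6a2 had 182, 168, 120 and 126 CPM in uterus libraries 1 to 4 and 3.39 to 4.07 CPM in brain, but Th, the first enzyme of catecholamine synthesis, had 0 to 0.0466 CPM in uterus and 15.4 to 21.3 CPM in brain. The whole list of 8 summed to 130 to 191 CPM in uterus and 47.0 to 56.9 CPM in brain, with 2 markers higher in uterus, 4 higher in brain and 2 not tested. The part of nerve endings in the uterine Npy was not tested.

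Agrp (chr8:105566698-105637393, minus strand) differed least of the 10. It had 0.403, 0.282, 0.406 and 0.326 CPM in uterus and 0.729, 0.669, 1.04 and 0.993 CPM in brain. All libraries were low, with 12 to 16 counts in uterus and 27 to 45 in brain, but none of the uterus libraries reached the lowest brain library. The log2 fold change was -1.27 ± 0.26 (SE), with an adjusted p of 0.00108, and it did not pass the 2-fold test, where the adjusted p was 0.109. One annotated Agrp transcript shares 114 exonic nt with Ctcf on the opposite strand, and Ctcf had 103 ± 4.43 CPM in uterus and 93.9 ± 6.52 CPM in brain (SD, n = 4 each). Gm5914, a lincRNA on the same strand that is absent from the counted genes, also shares 114 exonic nt with Agrp. The strand setting of the counting is not given in the sources used here, and no such setting separates Agrp from Gm5914. The Agrp counts are therefore uncertain.

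Pmch (chr10:88091072-88092375, plus strand), the precursor of melanin-concentrating hormone, had 0.176, 0.0941, 0.152 and 0.35 CPM in uterus, which was 4 to 15 counts, and 9.34, 9.94, 10.2 and 9.84 CPM in brain. The brain libraries were the most even of any of these genes. The log2 fold change was -5.64 ± 0.27 (SE), with an adjusted p of 1.18e-08. The gene shares 435 exonic nt with Parpbp on the opposite strand, a match of 236 nt at 100% identity being the longest. Parpbp had 9.92 ± 2.58 CPM in uterus and 0.290 ± 0.0420 CPM in brain (SD, n = 4 each), and in uterus libraries 1 to 4 Pmch had 7, 4, 6 and 15 counts where Parpbp had 403, 466, 248 and 528. Both were highest in library 4, but Pmch was lowest in library 2 and Parpbp in library 3. The uterine Pmch counts are therefore uncertain, and their sharing of reads with Parpbp was not tested. No other of the 10 genes had a near-identical stretch of at least 150 nt in the transcripts of another gene. The 114 nt that Agrp shares with Ctcf, and with Gm5914, are shorter than this limit.

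Hcrt (chr11:100761069-100762931, minus strand), the orexin precursor, was found in brain at 4.40, 4.22, 5.52 and 5.25 CPM. In uterus it had 2 counts in library 3, which is 0.0507 CPM, and 0 counts in the other libraries, so that all lay under the limit of 3 counts. The brain to uterus ratio of summed, scaled counts was 400.0, with an exact Poisson 95% interval of 110 to 3310, and the adjusted p was 4.93e-08.

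Of the peptides that restrain feeding, Pomc (chr12:3954951-3960642, plus strand) was the more variable. It had 0.302, 0.188, 0.0761 and 0.583 CPM in uterus and 1.35, 1.64, 0.947 and 2.51 CPM in brain. Library 4 was the highest in each organ and library 3 the lowest, and the organs did not overlap, with 3 to 25 counts in uterus and 41 to 106 in brain. The log2 fold change was -2.46 ± 0.51 (SE), with an adjusted p of 0.00104, and -3.06 without uterus library 4. Pomc is also the main transcript of pituitary corticotrophs. Of 12 pituitary markers, 11 were in the table, and they summed to 0.38 to 1.06 CPM in uterus and 3.29 to 6.87 CPM in brain, with Tshb at 0.33 to 0.881 CPM in uterus and 3.10, 3.07, 3.19 and 3.67 CPM in brain libraries 1 to 4, the 1 marker tested, which was higher in brain. In uterus Prl, Gh, Cga, Tbx19 and Gnrhr had 0 counts. In brain Prl had 0, 2.10, 0.670 and 0 CPM in libraries 1 to 4 and Gh had 0, 1.25, 0.231 and 0 CPM. Cga had 0.108, 0, 0 and 0.142 CPM there, Lhb 0.081, 0.231, 0.439 and 0.331 CPM, Pitx1 0, 0.0922, 0.0924 and 0.213 CPM and Tbx19, a factor of corticotrophs, 0, 0.0461, 0.0231 and 0.0946 CPM, while Gnrhr had 0 counts. In brain library 4, which had the most Pomc, Prl and Gh were thus at 0 while Tshb, Cga, Pitx1 and Tbx19 were at their highest, but Lhb was highest in library 3. Cga, Pitx1 and Tbx19 had only 6, 9 and 4 counts in brain library 4, so their order between libraries is uncertain. Pou1f1 had 13 counts in uterus and 5 in brain. The part of pituitary tissue in the Pomc levels was not tested.

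Cartpt (chr13:99898489-99901091, minus strand) was even in brain, at 9.85, 11.6, 11.9 and 9.67 CPM. In uterus it had 2 counts in library 2, which is 0.0470 CPM, and 0 counts in the others. The brain to uterus ratio was 889, with an exact Poisson 95% interval of 246 to 7350, and the adjusted p was 3.91e-09.

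Lepr (chr4:101717404-101815352, plus strand), the leptin receptor, stood apart from the other 9 in direction. The uterus libraries 1 to 4 had 84.5, 112, 65.1 and 86.5 CPM and the brain libraries 8.20, 7.10, 6.84 and 7.76 CPM. Every uterus library was far above every brain library, and the uterus libraries differed more among themselves than the brain libraries did. The mean was 87.0 ± 19.1 CPM in uterus and 7.47 ± 0.621 CPM in brain (SD, n = 4 each). The log2 fold change of 3.54 ± 0.16 (SE) had an adjusted p of 7.68e-09, and 3.48e-08 against a 2-fold change, and it ran from 3.40 to 3.66 as each library was left out in turn. The annotation gives 7 Lepr transcripts, whose long and short receptor forms counts per gene do not separate.

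Lepr is known from vessels and from the choroid plexus, among other places. Of 8 endothelial markers, 7 were higher in uterus and Cldn5, a tight-junction gene of brain vessels, was higher in brain, and the list summed to 1150, 1180, 1090 and 1040 CPM in uterus libraries 1 to 4 and to 164 to 187 CPM in brain. In uterus the endothelial sum was highest in library 2, as was Lepr, but lowest in library 4, where Lepr was second highest, and Lepr was lowest in library 3. The 10 choroid plexus markers summed to 22.9 to 37.7 CPM in uterus and 730 to 1000 CPM in brain, lowest in brain library 2, all 10 being higher in brain, and Otx2 had 0 counts in uterus. Adipocyte markers, 8 in all, summed to 37.2 to 46.5 CPM in uterus and 16.6 to 20.8 CPM in brain, with Adipoq, Cidec and Cfd at 0 counts in uterus. Most of the uterine sum was Lpl, at 21.9 to 40.1 CPM, and Pck1, at 4.98 to 14.1 CPM. Of the 8 adipocyte markers, 3 were tested, and all 3 were higher in uterus. Plin1, with 2 counts in uterus and 10 in brain, and Retn, with 8 in uterus and 64 in brain, were not tested. The parts of vessels and choroid plexus in the Lepr levels were not tested.

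Of the other receptors, Ghsr (chr3:27371351-27378010, plus strand), for ghrelin, had 1.13, 1.57, 0.855 and 1.04 CPM in brain. In uterus it had 2 counts in library 4, which is 0.0466 CPM, and 0 counts in the others. The brain to uterus ratio was 94.7, with an exact Poisson 95% interval of 25.9 to 788, and the adjusted p was 4.04e-06. Mc3r (chr2:172248492-172251114, plus strand) had 0 counts in all 4 uterus libraries and 0.675, 0.715, 1.11 and 0.851 CPM in brain, which was 25 to 48 counts. Against 3 counts over the 4 uterus libraries together, it was at least 46.3-fold lower in uterus, with an adjusted p of 1.92e-05.

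Mc4r (chr18:66857704-66860506, minus strand), the melanocortin receptor best known for its part in body weight, was low but present in every library. It had 0.151, 0.188, 0.203 and 0.186 CPM in uterus, 6 to 8 counts each, and 1.97, 2.54, 2.49 and 2.06 CPM in brain. The uterus libraries were close to the limit of detection. They were also closer to each other than counting error alone would make them, so their closeness does not show an even level. The log2 fold change was -3.61 ± 0.23 (SE), with an adjusted p of 1.02e-07. Neuronal markers had traces in uterus as well, highest in library 4 at 16.5 CPM, with Stmn2 alone at 5.55 to 6.97 CPM over the uterus libraries. Uterus library 4 was also highest for Pomc and Pmch and lowest for Npy, while Mc4r was highest in library 3. The 2 uterine Ghsr counts, also in library 4, lie under the limit of 3 counts. The part of neuronal RNA in the low uterine levels was not tested.

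Levels of different genes were compared per kilobase of annotated exon. In brain, Npy was the highest at 65.7 ± 5.96 CPM per kb (SD, n = 4), and then came Pmch at 13.1 ± 0.465, Cartpt at 8.42 ± 0.908 and Hcrt at 6.47 ± 0.85 CPM per kb. No libraries overlapped between neighbours in this order down to Pomc. Pomc at 1.22 ± 0.501, Lepr at 1.06 ± 0.0860, Agrp at 0.848 ± 0.185 and Mc4r at 0.808 ± 0.104 CPM per kb overlapped each with the next, so that their order is not separable. Mc3r at 0.319 ± 0.0748 and Ghsr at 0.259 ± 0.0682 CPM per kb lay below Mc4r and overlapped each other. In uterus Lepr led at 12.4 ± 2.73 CPM per kb (SD, n = 4), above Npy at 3.35 ± 1.96 and Agrp at 0.35 ± 0.0602 CPM per kb without overlap between neighbours. Pmch at 0.258, Pomc at 0.218 and Mc4r at 0.0650 CPM per kb followed, and from Agrp down each gene overlapped the next. Lepr was thus first of the 10 in uterus and sixth in brain by mean level per length.

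**Figure D2:**
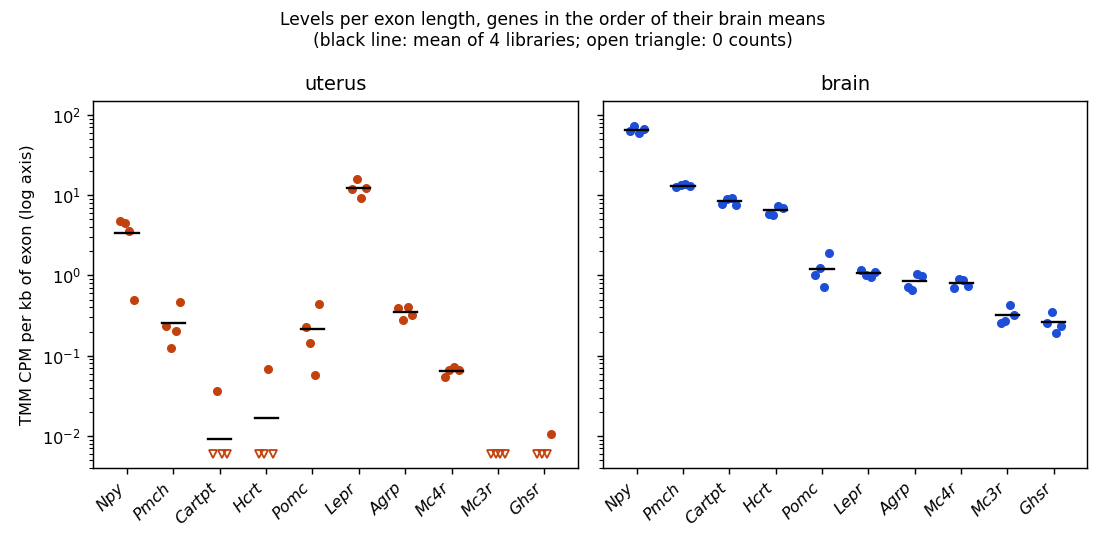
TMM CPM per kilobase of exon on a log axis for each library, uterus on the left and brain on the right, with genes in the order of their brain means, black lines at the mean of 4 libraries and triangles for 0 counts; the uterus means of Ghsr and Mc3r lie under the axis. Npy leads in brain at 60.1 to 73.7 CPM per kb, and Lepr leads in uterus at 9.24 to 15.9 CPM per kb.

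Of 17 further ligands and receptors, 16 were in the table and 8 of these passed the filter, all 8 of them higher in brain, with a median log2 fold change of -3.04, against 43.6% and 0.012 over all genes. Genes of this and the following lists that passed the filter through brain alone were selected for a higher level in brain, like the 7 above. Among the receptors for neuropeptide Y, Npy5r had 0 counts in uterus and 5.53 to 6.11 CPM in brain, at least 325-fold lower in uterus. Npy2r averaged 1.21 ± 0.314 CPM in uterus and 12.2 ± 1.55 CPM in brain (SD, n = 4 each), a log2 fold change of -3.34 ± 0.19 (SE). Npy1r, the receptor known from smooth muscle of vessels, was measurable in both, at 5.34, 5.85, 7.38 and 4.89 CPM in uterus and 20.2 to 22.2 CPM in brain, and its log2 fold change was -1.86 ± 0.13 (SE).

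Both orexin receptors were higher in brain. Hcrtr2 had 8 counts in uterus and 951 in brain, at -6.79 ± 0.38 (SE) in log2 fold change, and Hcrtr1 averaged 0.456 ± 0.162 CPM in uterus and 3.93 ± 0.456 CPM in brain, a log2 fold change of -3.10 ± 0.25. Mchr1, the receptor for melanin-concentrating hormone, had 1.05 to 2.85 CPM in uterus and 12.6 to 17.2 CPM in brain. Ghrl, the ghrelin gene, averaged 0.621 ± 0.15 CPM in uterus and 1.64 ± 0.271 CPM in brain, with a log2 fold change of -1.39 ± 0.24. Mc5r, a melanocortin receptor known from glands, had 0.0941 to 0.277 CPM in uterus and 0.300 to 0.594 CPM in brain, with an adjusted p of 0.0451 that was lost in most alternatives. Lep, the leptin gene, had 0 counts in uterus and 6 in brain and was not tested. Also too low to test were Leap2 with 18 counts in uterus and 16 in brain, Pyy with 0 and 6, Ppy with 5 and 0, Npy4r with 14 and 21, Npy6r with 12 and 4, Mc1r with 1 and 11, and Mc2r with 6 and 2.

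Accessory proteins of these receptors split. Of 9, 7 were tested, with 2 higher in uterus, 5 higher in brain and a median log2 fold change of -1.47, against 43.5%, 43.6% and 0.012 over all genes. Mrap2, a partner protein of melanocortin and ghrelin receptors, had 4 counts in uterus and 2028 in brain, at -8.80 ± 0.34 (SE) in log2 fold change. Atrn, the attractin gene, known from mouse coat colour as a partner of agouti, averaged 67.9 ± 2.52 CPM in uterus and 285 ± 9.63 CPM in brain (SD, n = 4 each). Leprot, which is known to limit the leptin receptor at the cell surface, was higher in uterus, at 80.3 ± 6.85 CPM against 26.8 ± 1.65 CPM in brain, a log2 fold change of 1.58 ± 0.07 (SE). Gpr160, described as a candidate receptor for CART peptide, was also higher in uterus, at 9.74 ± 1.69 CPM against 0.898 ± 0.413 CPM in brain (log2 fold change 3.45 ± 0.31), while its ligand gene Cartpt had 2 counts there. Mrap, with 0 counts in uterus and 52 in brain, and Mboat4, the enzyme that acylates ghrelin, with 26 counts in uterus and 48 in brain, were not tested.

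The genes of prohormone processing, which are enzymes that cut and trim prohormones together with an inhibitor and a chaperone, also fell into both directions. Of 10, 4 were higher in uterus and 6 higher in brain, where the shares of all genes are 43.5% and 43.6%, and the median log2 fold change was -2.08, against 0.012. Pcsk2, a convertase of secretory granules that acts on Pomc products, had 28 counts in uterus, in libraries 2 and 4, and averaged 322 ± 9.88 CPM in brain (SD, n = 4), a log2 fold change of -10.86 ± 0.37 (SE). Pcsk1n, an inhibitor of the convertase Pcsk1, was at -10.16 ± 0.14, and Scg5, the chaperone of Pcsk2, at -8.32 ± 0.16 on the same scale. Pcsk1 itself averaged 0.213 ± 0.0752 CPM in uterus and 41.8 ± 5.05 CPM in brain. Higher in uterus were the broadly used convertases Pcsk5, at 164 ± 31.6 CPM against 13.0 ± 0.569 CPM in brain, and Furin, at 75.4 ± 2.87 CPM against 43.9 ± 1.02 CPM in brain. Prcp, an enzyme known to inactivate alpha-melanocyte-stimulating hormone, had 97.7 ± 6.54 CPM in uterus and 10.6 ± 1.36 CPM in brain, a log2 fold change of 3.21 ± 0.10 (SE). The difference in Cpd, a carboxypeptidase, was small, with a log2 fold change of 0.21 ± 0.05.

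**Figure D3:**
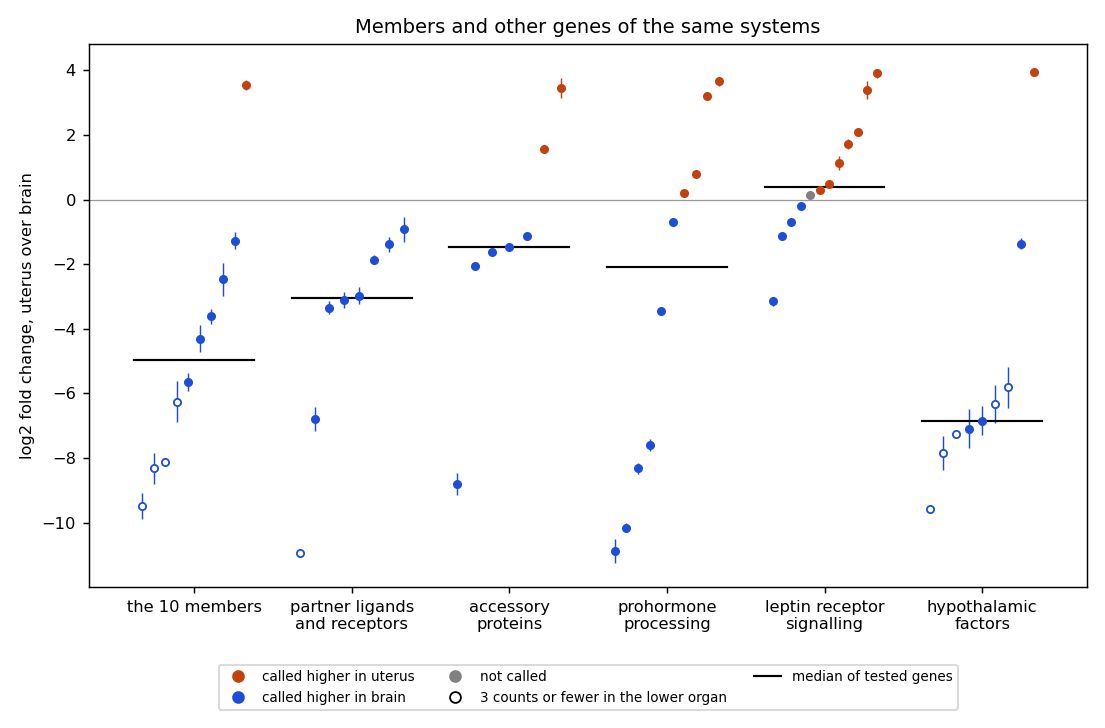
Log2 fold change, uterus over brain, of each tested gene of the 10 and of the 5 lists of related genes, with lines of 1 SE (none where a gene has 0 counts in uterus) and black bars at the list medians, which run from -6.84 for hypothalamic factors to 0.39 for leptin receptor signalling. Open circles mark genes with 3 counts or fewer in the lower organ, whose fitted values depend on the prior count.

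The genes through which the leptin receptor signals were called in both directions. Of 12 such genes, 7 were higher in uterus, 4 were higher in brain and Stat5b was not called, and their median log2 fold change was 0.39, against 43.5%, 43.6% and 0.012 over all genes. Socs3, which is induced by the receptor and restrains it, had 46.4, 48.1, 49.5 and 37.9 CPM in uterus and 3.21, 3.64, 2.86 and 2.41 CPM in brain. The uterus libraries were all well above the brain libraries, with a log2 fold change of 3.91 ± 0.14 (SE) and an adjusted p of 1.29e-09. Stat3, the transcription factor best known downstream of Lepr, averaged 280 ± 21.8 CPM in uterus and 66.0 ± 2.36 CPM in brain (SD, n = 4 each), a log2 fold change of 2.09 ± 0.06 (SE). Jak2, the kinase bound to the receptor, had 171, 241, 236 and 320 CPM in uterus and 69.5 to 77.6 CPM in brain. Stat5a was higher in uterus by 3.39 ± 0.27 on the log2 scale, with 50.0 CPM in uterus library 4 and 22.4 to 32.3 CPM in the others, against 2.61 to 3.67 CPM in brain. Irs1, at a log2 fold change of 1.14 ± 0.21 (SE), and the phosphatases Ptpn2, at 0.48 ± 0.06, and Ptpn1, at 0.30 ± 0.08, made up the 7. These genes serve many cytokine and growth factor receptors besides Lepr.

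On the other side, Irs2, an adaptor shared with the insulin receptor, averaged 11.5 ± 2.80 CPM in uterus and 102 ± 4.36 CPM in brain (SD, n = 4 each), a log2 fold change of -3.15 ± 0.15 (SE). Grb2 was lower in uterus at -1.14 ± 0.06 and the phosphatase Ptpn11 at -0.70 ± 0.05 on the same scale. Sh2b1, an adaptor of Jak2, was at -0.19 ± 0.06 and turned to 0.06 under upper-quartile and library-size scaling, so its direction depends on the scaling. Stat5b averaged 60.5 ± 6.04 CPM in uterus and 55.0 ± 2.44 CPM in brain, with overlapping libraries and an adjusted p of 0.102, and under those same scalings it was called higher in uterus, at 0.39.

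**Figure D4:**
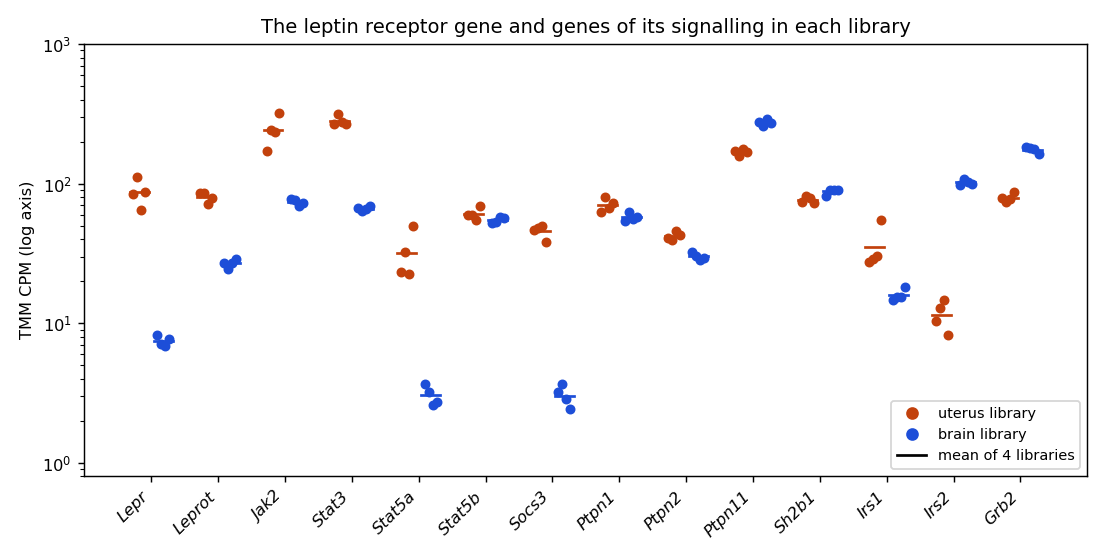
Level of Lepr, its regulator Leprot and 12 genes of leptin receptor signalling in each library, in TMM CPM on a log axis, with uterus left of brain and bars at the mean of 4 libraries. Lepr, Stat5a and Socs3 show the widest gaps in favour of uterus, at log2 fold changes of 3.54, 3.39 and 3.91, and Irs2 shows the widest in favour of brain, at -3.15.

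Of 14 transcription factors that mark or specify hypothalamic neurons, 9 were tested, with 1 higher in uterus and 8 in brain, against 43.5% and 43.6% of all genes, and the median log2 fold change was -6.84, or -6.33 with genes at 0 counts in uterus at their bound, against 0.012 over all genes. Otp, needed for several neuropeptide neurons, had 0 counts in uterus and 2.06 to 2.62 CPM in brain, at least 125-fold lower in uterus. Isl1, a factor of arcuate Pomc neurons, had 2 counts in uterus and 579 in brain, a ratio of brain to uterus of 287 with an exact Poisson 95% interval of 79.1 to 2380. Nhlh2 had 8 counts in uterus, all in library 4, and 1157 in brain. Ebf3 was measurable in both organs, at 3.22 to 5.15 CPM in uterus and 9.38 to 11.6 CPM in brain, and its log2 fold change was -1.36 ± 0.16 (SE). Tbx3, which is known from arcuate neurons and from many developing organs, went the other way, at 76.1 ± 5.81 CPM in uterus and 4.95 ± 0.503 CPM in brain (SD, n = 4 each), a log2 fold change of 3.94 ± 0.09 (SE). Bsx, Hmx2 and Hmx3 had 0 counts in uterus and 16, 26 and 48 in brain, Nr5a1 had 16 in uterus and 35 in brain and Rax 2 in uterus and 4 in brain, and these 5 were not tested.

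The spread between libraries was described by the percent coefficient of variation (CV) of CPM over the 4 libraries, beside the CV that counting error alone would give. In uterus Npy varied by 58.7%, where counting alone gives 11.4%, and Lepr by 22.0%, where it gives 1.67%, against a median of 8.38% over all genes at 1 CPM or more in uterus. Uterine Pomc varied by 75.7% and Pmch by 57.0%, where counting gives 28.9% and 35.4%. Uterine Agrp, at 17.1%, and Mc4r, at 12.1%, varied less than counting gives, which is 26.3% and 36.5%. In brain Pomc was the most variable at 41.1%, where counting gives 12.2%, against a median of 6.40% over all genes. The other peptides varied less there, Npy by 9.15%, Cartpt by 10.8%, Hcrt by 13.1% and Pmch by 3.71%, and for Pmch counting alone gives 4.95%. Among the genes with the fewest brain counts, Ghsr varied by 26.3%, where counting gives 14.5%, Mc3r by 23.4%, where it gives 16.9%, Agrp by 21.7%, where it gives 16.7%, and Mc4r by 12.9%, where it gives 10.3%.

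**Figure D5:**
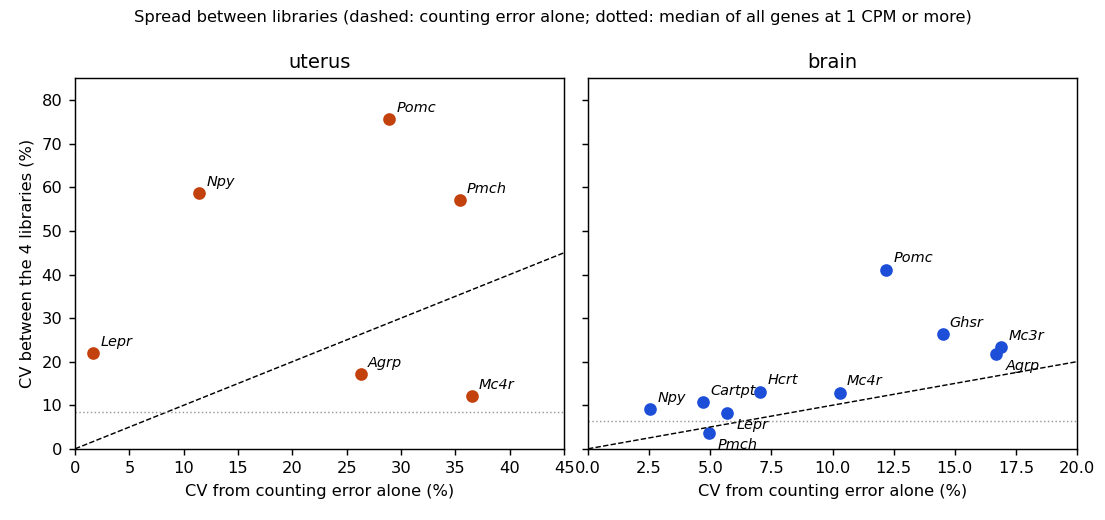
Percent CV of CPM over the 4 libraries of an organ against the CV that counting error alone gives, uterus left and brain right, with a different horizontal range in each; the dashed line marks counting error and the dotted line the median of all genes at 1 CPM or more. Genes with 2 or fewer counts in uterus are not shown there. Npy, Lepr, Pomc and Pmch in uterus and Pomc in brain lie well above the dashed line.

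The genes whose levels over the 8 libraries were closest to each of the 10 were found by Euclidean distance on log2 CPM. For Lepr these were Cd55, a complement regulator, at a distance of 0.611, Ltbr, the lymphotoxin beta receptor, at 0.634 and Emcn, the endothelial sialomucin endomucin, at 0.650. Emcn had 82.0, 88.7, 80.5 and 77.0 CPM in uterus and 6.60 to 8.29 CPM in brain, close to Lepr in both organs. For Npy the nearest were Dlk1 at 1.41, Ppp1r1a at 1.81 and Baalc at 1.82. Cartpt was nearest to the sodium channel gene Scn9a at 0.650, then Ctxn2 and Cdh12, and Hcrt to Alox12b at 1.03, then Pcdha12 and Slc18a3, the vesicular acetylcholine transporter. Pmch was nearest to Psg16 at 0.909, Palm2 and Arhgap36, and Pomc to the adrenergic receptor gene Adra2b at 1.53, Xkrx and Myom3. Agrp was nearest to Wdr95 at 0.861, Il12rb2 and Fam92b. Among the receptors, Mc3r was nearest to Sox14 at 0.581, Slc13a1 and Klhdc7b, Mc4r to Aspdh at 0.886, BC024139 and Tdrd6, and Ghsr to Gpr50, an orphan receptor gene, at 0.752, Tmco5 and Pou4f2. With 2 organs that differ this much, such distances mostly say that the levels in each organ were alike.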

How the data were processed

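Total RNA was extracted with an RNeasy kit and libraries were made with a stranded kit that removes ribosomal RNA, per the labels' protocols. The deposited values are whole-number counts per gene without normalization, and 894 of the 19884 genes had 0 counts in all libraries. The submitters' processing notes name FastQC, HISAT2 (version 2.0.3), featureCounts, edgeR and GRCm38.p5, while the annotation, the strand setting and the treatment of reads with several matches are not stated there. Library totals were 35394603 to 47790178 counts, and replicates of an organ correlated at 0.982 to 0.993 in log2 CPM.

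Organs were compared with edgeR 4.0.16 in R 4.3.3 (filterByExpr by organ, TMM factors 1.07 to 1.11 in uterus and 0.907 to 0.924 in brain, quasi-likelihood F test, two-sided, Benjamini-Hochberg adjustment over 16074 genes at 0.05, and glmTreat for a 2-fold change). The fit had no term for animal. SE is the log2 fold change, unshrunken, over the root of its F value, and it can be too small for genes with few counts. A fold against an organ with 0 counts is a bound against 3 counts over its 4 libraries. Coordinates, exon lengths and overlaps are from GENCODE M21 on GRCm38, matched by identifier, and near-identical transcripts were searched with BLAST+ 2.17.0 at 98% identity over at least 150 nt. The fit was also run on simulated counts in which most genes were alike in both organs and only well-counted genes differed. That run does not cover organs that differ in most genes, or genes with few counts.

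The 10 genes, the lists of related genes and the lists of markers were chosen with earlier results of these data known. Named from each list of related genes were the members against its median or not called, and the 3 called ones that differed most and reached 1 CPM in their higher organ, while other named genes were chosen after their values were seen. Some single markers are not reported here. Nearest genes left out unnamed gene models and used a prior count of 2. The alternatives tried were scaling by RLE, by the upper quartile or by library size, no filter, a filter of 1 CPM in 4 libraries, DESeq2 1.42.0, limma-voom (limma 3.58.1), a block for replicate number, a threshold of 0.01 and leaving out each library. A fit of brain libraries 1 and 4 with all uterus libraries was added after seeing the data, since the other brain libraries held the Prl and Gh counts.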

Additional observations from a re-analysis of the deposited data

Results flagged for a closer look

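In 3 of 19 groups of 4 libraries a single library stood far from the others. For continuous values chance flags about 1 group in 20. The rule must, however, flag any group in which all libraries but 1 have 0 counts, as in these 3, so that rate does not apply to them. Cartpt had 0.0470 CPM in uterus library 2, Hcrt 0.0507 CPM in uterus library 3 and Ghsr 0.0466 CPM in uterus library 4, each from 2 counts where the other libraries had 0. All 3 values lie under the limit of 3 counts, so none shows a level above that of the other libraries.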

How the results depend on the processing

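Each of the 10 genes kept its direction and its call in every alternative that could test it, 17 or 18 for each. Lepr ran from 3.40 to 3.80, Npy from -4.72 to -3.91, Pmch from -6.09 to -5.39, Mc4r from -3.68 to -3.36, Agrp from -1.37 to -1.02 and Pomc from -3.06 to -2.16. With a filter of 1 CPM in 4 libraries 5 genes higher in brain were left, since the others were not tested. The number higher in brain past a 2-fold change was 8 as each library was left out, and the number of all genes called in each direction stayed within 1.5 times in every alternative. Without uterus library 4 the median CV of Npy and Lepr, those of the 10 genes at 1 CPM or more in uterus, was 20.4%, against 40.3% with it, and it ran from 20.4% to 50.0% as each library was left out. Fitted values that rest on few uterine counts moved by over 1.5-fold: Cartpt from -9.47 to -11.79 without uterus library 2, Hcrt from -8.32 to -10.66 without uterus library 3, Ghsr from -6.25 to -8.56 without uterus library 4, and Mc3r from -8.12 to -6.11 in limma-voom. Pomc also moved by over 1.5-fold, from -2.46 to -3.06 without uterus library 4. Upper-quartile and library-size scaling moved the median of all genes from 0.012 to 0.268 and 0.269, reversed Sh2b1 to 0.06 and ended the call of Mc5r. Mc5r also lost its call in DESeq2 (adjusted p 0.0762), limma-voom (0.0562) and without uterus library 2 (0.107) or brain library 1 (0.138), among others. Stat5b gained a call without uterus library 3, at 0.19. Beyond scaling and the smaller samples, the cause was not tested. Deviations of same-numbered libraries from their organ means correlated at -0.048 to 0.083. Deviations of different organs of 1 mouse need not correlate, so these values cannot say whether the numbers pair the organs. With a replicate block the calls were 6898 for uterus and 6948 for brain, and 1 and 9 of the 10 genes. Uterus library 4 deviated most like brain library 4, but uterus libraries 1 and 3 both like brain library 3. Depth limits the uterine levels of Cartpt, Hcrt, Ghsr and Mc3r, which lie under 3 counts.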

Other observations

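Other marker lists gave the following values. Tanycyte and ependymal markers, among which tanycytes line the ventricle beside the arcuate nucleus, summed to 137 to 474 CPM in uterus and 271 to 302 CPM in brain. Dio2, the enzyme that activates thyroid hormone, made up most of the uterine sum, with 123, 64.7, 106 and 369 CPM in uterus libraries 1 to 4 and 82.5 to 95.6 CPM in brain, and was not called, with an adjusted p of 0.0800. Of the 7 markers tested, 1 was higher in uterus and 5 in brain. Markers of megakaryocytes and platelets summed to 88.5 to 137 CPM in uterus and 13.6 to 15.8 CPM in brain, with 3 of 6 higher in uterus and 2 in brain. Markers of ovary and oviduct summed to 28.3 to 66.7 CPM in uterus and 50.5 to 56.5 CPM in brain, with Ovgp1, the oviductal glycoprotein gene, at 12.9 to 51.5 CPM in uterus and 5.59 to 6.59 CPM in brain. Of the 6 tested, 1 was higher in uterus and 4 in brain, and Fshr and Cyp19a1 had 0 counts in uterus. Markers of the preimplantation embryo summed to 5.97 to 7.90 CPM in uterus and 11.9 to 16.6 CPM in brain, nearly all of it Eomes, and both markers tested were higher in brain. Pou5f1 and Cdx2 had 0 counts in uterus.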
